A study of Rattus norvegicus with 12 samples.

Results

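Prkcd, Tcf7l2, Lef1, Gbx2, Zic1, Ramp3 and Kcnc2 are 7 genes used as markers of the thalamus, and their transcripts were followed here over brain and pituitary arrays of adult male rats. They were taken by gene symbol from the platform annotation and make up 7 of the 13337 named genes on the array, with 9 of its 22523 probes: 3 for Kcnc2 and 1 for each of the others. The genes were chosen by their levels on the hypothalamus arrays and their detection in the pituitary, as a gauge of dissection, so those values are given as a description. RNA came from the hypothalamus or pituitary of Wistar male pups killed on postnatal day 70, whose dams had been dosed orally on gestation day 15. There were 4 groups of 3 arrays each: hypothalamus after maternal TCDD, hypothalamus after vehicle, pituitary after maternal TCDD and pituitary after vehicle. TCDD is the dioxin 2,3,7,8-tetrachlorodibenzo-p-dioxin, a ligand of the aryl hydrocarbon receptor, and all pups were of the same strain, sex and age, with exposure reaching them only through the dam. The series text gives the dose as 1 µg per kg and the sample protocols as 1 mg per kg, so no value here is tied to a dose. The study asked which transcripts stay altered in adult sons of exposed dams, and the labels do not say which arrays share a dam, a litter or an animal.

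The thalamus is the relay of the forebrain and lies just above the hypothalamus, so a block of tissue cut for one can hold a rim of the other. Its excitatory relay neurons arise from progenitors in which Wnt signalling acts through beta-catenin and the DNA-binding partners of the TCF and LEF family, and from which the homeobox factor Gbx2 is switched on as cells leave the cycle. In the adult rodent brain Tcf7l2, Lef1 and Prkcd stay prominent in relay nuclei, whereas neighbouring inhibitory nuclei and most of the hypothalamus express them little. Each name is a marker by degree only: Zic1, Ramp3 and Kcnc2 are also used by neurons elsewhere, and Prkcd and Tcf7l2 by non-neuronal cells.

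Promoter windows of 6 of the 7 genes were found in the RefSeq promoter table of build GRCr8, as 7 windows of 300 bases each that run from 250 bases before the annotated start to 50 after it. The 3 windows below are shown because Tcf7l2 and Lef1 are themselves the proteins that bind the core CTTTG, and because these are the windows among the 7 that hold it. Capitals mark the core, written CTTTG on the printed strand or CAAAG where it lies on the other strand. The Prkcd window is chr16:5805790-5806089 on the minus strand, the Tcf7l2 window chr1:264791085-264791384 on the plus strand and the Lef1 window chr2:222340463-222340762 on the plus strand.
Prkcd: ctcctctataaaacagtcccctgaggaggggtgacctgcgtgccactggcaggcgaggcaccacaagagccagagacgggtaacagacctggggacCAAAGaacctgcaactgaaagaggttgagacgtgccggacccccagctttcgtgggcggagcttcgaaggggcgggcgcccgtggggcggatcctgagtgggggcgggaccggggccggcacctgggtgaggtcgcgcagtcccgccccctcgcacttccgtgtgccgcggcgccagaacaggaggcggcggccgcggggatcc
Tcf7l2: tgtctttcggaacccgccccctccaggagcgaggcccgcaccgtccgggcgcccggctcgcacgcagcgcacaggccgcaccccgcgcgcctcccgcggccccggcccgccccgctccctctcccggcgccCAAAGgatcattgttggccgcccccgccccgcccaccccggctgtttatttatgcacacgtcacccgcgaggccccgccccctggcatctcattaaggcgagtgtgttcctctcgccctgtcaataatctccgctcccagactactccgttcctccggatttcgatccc
Lef1: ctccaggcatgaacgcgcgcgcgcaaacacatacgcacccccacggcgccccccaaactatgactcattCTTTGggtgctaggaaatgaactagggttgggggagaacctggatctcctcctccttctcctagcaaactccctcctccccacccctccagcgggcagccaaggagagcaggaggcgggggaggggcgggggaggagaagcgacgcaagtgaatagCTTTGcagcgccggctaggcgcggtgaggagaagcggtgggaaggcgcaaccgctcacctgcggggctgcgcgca

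The core lay at -154 in Prkcd, at -119 in Tcf7l2 and at -181 and -25 in Lef1, counted in bases from the annotated start to the first base of the core on the printed strand. Searched on both strands, CTTTG was held by 3 of the 7 windows, against 53.8% of the 33469 windows in the table. The longer forms CTTTGAT and CTTTGAA, which both contain the core, were held by 0 of the 7 windows, against 3.63% and 5.40% of all windows. The letters TATAAA were found in the Prkcd window alone, against 14.2% of all windows. The windows of Gbx2, Tcf7l2 and Prkcd carried 44, 36 and 27 CG dinucleotides, those of Lef1 and Ramp3 carried 23 and 16, and both Kcnc2 windows carried few, with 5 and 6. These are descriptions of letters, and no binding was measured.

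Genes that mark each tissue were higher in the tissue of the label, though not all were confined to it. With all 12 arrays normalized together, Pmch, the precursor of melanin-concentrating hormone made in the lateral hypothalamus, had a median log2 level of 14.8 on the hypothalamus arrays and 4.80 on the pituitary arrays. Lhb, the beta subunit of luteinizing hormone, had a median of 6.00 on the hypothalamus arrays and 14.2 on the pituitary arrays. Lhb was still detected on 5 hypothalamus arrays, and the prolactin gene Prl on 3, with Prl levels there of 5.15 to 8.26. The hypothalamic peptide genes Avp and Oxt were detected on all 6 pituitary arrays. Detected probes numbered 10852 to 11438 per hypothalamus array and 9934 to 10371 per pituitary array. Hypothalamus arrays did stand apart from each other in markers of neighbouring regions. TCDD arrays 1 and 2 carried the high levels of thalamus genes described below, and vehicle array 1 carried high levels of striatal and cortical genes, so the comparisons of the 7 genes between TCDD and vehicle in the hypothalamus and between tissues are also given without the 2 TCDD arrays where they could be fitted.

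In the hypothalamus, all 7 genes were highest on TCDD array 1, and 6 of the 7 were next highest on TCDD array 2. The remaining TCDD array sat with the vehicle arrays: TCDD array 3 was the lowest of all 6 arrays for Gbx2 and Zic1. TCDD array 1 was the highest array for 12.8% of the 11095 genes and unnamed probes tested, and TCDD array 1 followed by TCDD array 2 was the order for 3.0%. Centred on each gene's own mean, the 7 genes averaged 1.20, 0.64 and -0.53 on TCDD arrays 1, 2 and 3, against -0.04, -0.77 and -0.50 on vehicle arrays 1, 2 and 3, on the log2 scale. Because the genes were chosen with these levels known, the order is a description and has no test. In bulk tissue, more cells of a type and more RNA per cell cannot be told apart.

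**Figure D1:**
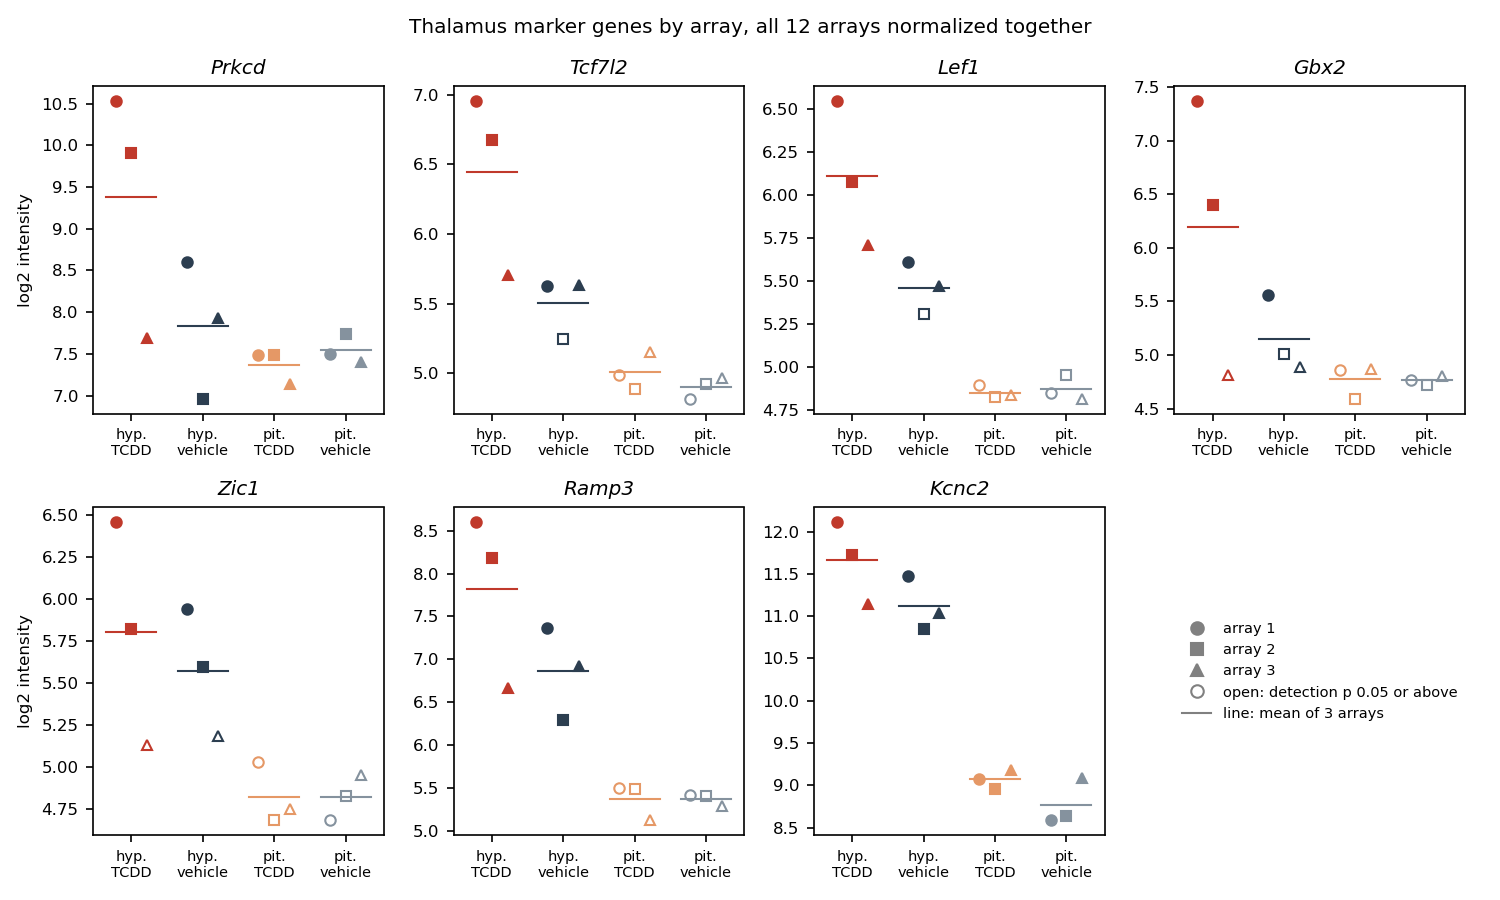
Log2 intensity (vertical axis) of each thalamus marker gene on the 12 arrays, by tissue and treatment, with the marker shape giving the array number. The highest point of every panel is hypothalamus TCDD array 1, hypothalamus TCDD array 3 lies within or near the range of the vehicle arrays, and 5 genes have only open symbols in the pituitary.

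The kinase Prkcd showed the widest range of the 7. It encodes protein kinase C delta, which is activated by diacylglycerol without calcium. The authors' deposited intensity for Prkcd, before any normalization, was 1860.1, 1069.6 and 293.9 on hypothalamus TCDD arrays 1, 2 and 3, against 482.5, 213.6 and 316.7 on vehicle arrays 1, 2 and 3. After background correction and normalization its log2 levels were 10.61, 9.98 and 7.79 on the TCDD arrays, against 8.70, 7.05 and 8.03 on the vehicle arrays. TCDD arrays 1 and 2 were the highest, and TCDD array 3 fell inside the vehicle range, so the groups overlapped. The span from the lowest to the highest array was 3.55 on the log2 scale, or 11.7-fold. Means were 9.46 ± 1.48 after TCDD and 7.93 ± 0.829 after vehicle (SD, n = 3 each), a log2 difference of 1.53 (SE 0.698, 95% interval -0.07 to 3.14, limma adjusted p = 0.883).

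The Wnt-pathway factors Tcf7l2 and Lef1 had the smallest p-values of the 7. Tcf7l2 encodes a high-mobility-group factor that pairs with beta-catenin and that shapes the identity of thalamic and habenular neurons in the mouse. Its log2 levels were 7.04, 6.76 and 5.72 on the TCDD arrays, against 5.63, 5.21 and 5.64 on the vehicle arrays. All 3 TCDD arrays were above all 3 vehicle arrays, though TCDD array 3 was above vehicle array 3 by little. The means were 6.51 ± 0.698 after TCDD and 5.50 ± 0.244 after vehicle, a 2.02-fold difference (log2 1.01, SE 0.316, 95% interval 0.28 to 1.74, limma adjusted p = 0.883). Lef1, a related factor with the same DNA-binding core, had log2 levels of 6.63, 6.13 and 5.72 on the TCDD arrays, against 5.61, 5.28 and 5.45 on the vehicle arrays. Its groups did not overlap either, and TCDD array 3 was again the closest to the vehicle arrays. Lef1 means were 6.16 ± 0.454 after TCDD and 5.45 ± 0.168 after vehicle, a 1.64-fold difference (log2 0.72, SE 0.218, 95% interval 0.21 to 1.22, limma adjusted p = 0.883). Both probes were dim: each was detected on 3 TCDD arrays and 2 vehicle arrays, vehicle array 2 being the exception. All TCDD arrays lay above all vehicle arrays for 5.19% of the genes and probes tested.

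The developmental transcription factors Gbx2 and Zic1 were detected on part of the arrays only. Gbx2, the homeobox factor of thalamic relay progenitors, had log2 levels of 7.46, 6.48 and 4.79 on the TCDD arrays, against 5.55, 4.98 and 4.87 on the vehicle arrays. It was detected on TCDD arrays 1 and 2 and on vehicle array 1, the smallest number of arrays that the filter accepts, and its 2 highest arrays were TCDD arrays. Its groups overlapped, since the lowest array was a TCDD array. Gbx2 means were 6.24 ± 1.35 after TCDD and 5.13 ± 0.369 after vehicle (log2 difference 1.11, SE 0.577, 95% interval -0.22 to 2.44, limma adjusted p = 0.883). Zic1, a zinc-finger factor of dorsal midline and forebrain progenitors that persists in adult thalamic and septal neurons, had log2 levels of 6.54, 5.85 and 5.09 on the TCDD arrays, against 5.98, 5.60 and 5.15 on the vehicle arrays. Zic1 was the exception in array order, with vehicle array 1 next after TCDD array 1. Its means were 5.83 ± 0.722 after TCDD and 5.58 ± 0.417 after vehicle, with overlapping groups and a log2 difference of 0.25 (SE 0.352, limma adjusted p = 0.934).

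Ramp3 and Kcnc2 encode proteins of the neuronal membrane and were detected on all 6 hypothalamus arrays. Ramp3, a single-pass protein that sets the ligand preference of the calcitonin family of receptors, had log2 levels of 8.69, 8.28 and 6.76 on the TCDD arrays, against 7.46, 6.37 and 7.01 on the vehicle arrays. Its order over the 6 arrays was the same as that of Prkcd, from TCDD array 1 down to vehicle array 2. Ramp3 means were 7.91 ± 1.02 after TCDD and 6.95 ± 0.543 after vehicle, with overlapping groups (log2 difference 0.96, SE 0.480, 95% interval -0.14 to 2.07, limma adjusted p = 0.883). Kcnc2, the Kv3.2 potassium channel subunit of fast-spiking neurons, had log2 levels of 12.20, 11.83 and 11.24 on the TCDD arrays at its brightest probe, against 11.58, 10.92 and 11.13 on the vehicle arrays. TCDD array 3 lay between vehicle arrays 1 and 3. The brightest probe averaged 11.76 ± 0.483 after TCDD and 11.21 ± 0.336 after vehicle (log2 difference 0.55, SE 0.258, 95% interval -0.05 to 1.14, limma adjusted p = 0.883). The other probes of Kcnc2 had log2 differences of 0.69 and 0.23 (limma adjusted p = 0.883 and 0.896), and TCDD array 1 was the highest on all 3 probes.

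Counted together, all 7 genes had a higher mean in the TCDD group than in the vehicle group, where 50.6% of all genes and probes tested did. Their median log2 difference was 0.96, against 0.0027 over all. By limma, 0 of the 7 passed an adjusted p of 0.05, where 0.00901% of all did, and Tcf7l2 and Lef1 had an unadjusted p under 0.05, where 2.69% of all did in the same direction. The contrast uses the levels by which the genes were proposed, and nothing is read from these shares. The count rests on TCDD arrays 1 and 2. With these left out, a setting chosen after the values were seen, TCDD array 3 differed from the vehicle mean by -0.14 for Prkcd, -0.19 for Ramp3, 0.03 for Kcnc2, 0.22 for Tcf7l2 and 0.27 for Lef1 (log2), with a limma adjusted p of 0.894 to 0.991. In that fit Gbx2 and Zic1 were detected on too few arrays to be tested, and the lone TCDD array was assumed to vary like the vehicle arrays. With 1 array left out at a time, the Prkcd difference ran from 0.96 without TCDD array 1 to 2.37 without TCDD array 3. Over the same settings Ramp3 ran from 0.57 without TCDD array 1 to 1.54 without TCDD array 3, and Kcnc2 from 0.32 to 0.80. The sizes for the dim genes also depended on the treatment of background: in the authors' normalized table the difference was 0.32 for Tcf7l2, 0.20 for Lef1 and 0.37 for Gbx2.

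**Figure D2:**
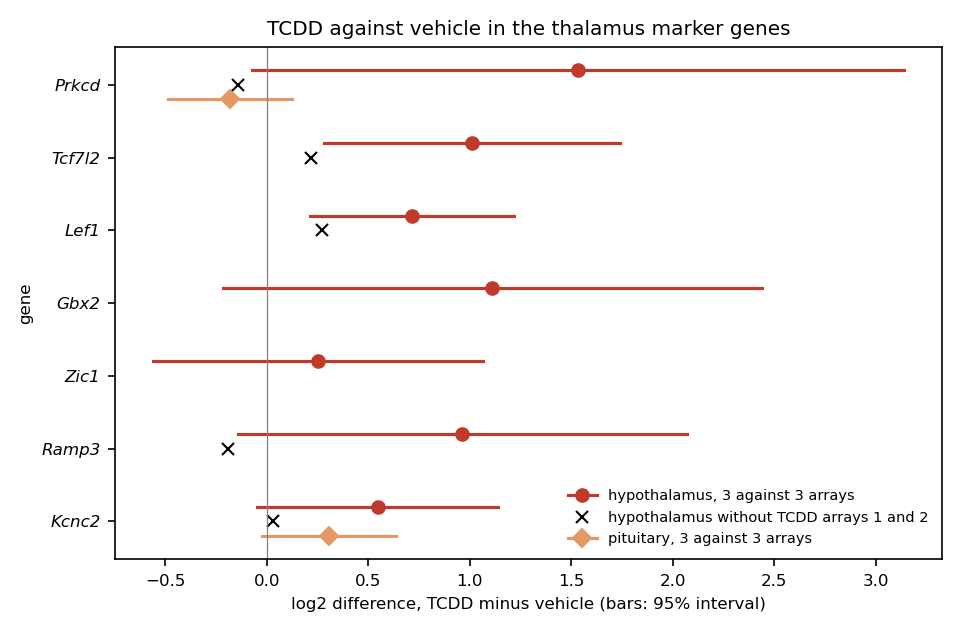
Log2 difference, TCDD minus vehicle (horizontal axis), of each thalamus marker gene, with bars for the 95% interval of the limma fit in the hypothalamus (circles) and pituitary (diamonds, the 2 genes tested there), and crosses for the hypothalamus without TCDD arrays 1 and 2. The hypothalamus intervals of Tcf7l2 and Lef1 lie above 0, the other 5 include 0, and the crosses lie between -0.19 and 0.27.

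Arrays of the same group differed widely in these genes. The SD over the 3 TCDD arrays was larger for each of the 7 genes than for 97.2% to 99.9% of all genes and probes tested, whose median SD was 0.138 on the log2 scale. Over the 3 vehicle arrays the share was 52.1% for Lef1, 74.4% for Tcf7l2 and 88.1% to 99.1% for the other 5 genes, against a median SD of 0.161. Prkcd was thus variable in both groups, while Lef1 was variable among the TCDD arrays and near the median among the vehicle arrays. Lef1 and Tcf7l2 were dim on the vehicle arrays, where the offset of the background correction narrows differences. Because the genes were chosen by these levels, a wide spread was part of the choice, and the shares are a description. Summed on the linear scale, the 7 genes reached 7181, 5283 and 2918 intensity units on TCDD arrays 1, 2 and 3, against 3860, 2311 and 2791 on vehicle arrays 1, 2 and 3, a sum that Kcnc2 dominates.

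Of 16 further genes listed as thalamic, 10 had a named probe and 9 were tested in the hypothalamus. The list was drawn up with earlier results of these arrays known. TCDD array 1 was the highest array for 7 of the 9 and TCDD array 2 for the other 2, Calb2 and Adarb1. TCDD arrays 1 and 2 were the 2 highest arrays for 7 of the 9, where 5.93% of all genes and probes had that order, and 8 of the 9 had a higher mean after TCDD, with a median log2 difference of 0.45. By limma 0 of the 9 passed an adjusted p of 0.05 and 3 had an unadjusted p under 0.05, where 5.35% of all did. These genes are given over all 6 arrays only. Slc17a6, the vesicular glutamate transporter of thalamic and many hypothalamic excitatory neurons, had log2 levels of 13.24, 13.13 and 13.02 on the TCDD arrays, against 12.31, 12.77 and 12.94 on the vehicle arrays. Its groups did not overlap, and TCDD array 3 was above all vehicle arrays, with a log2 difference of 0.45 (SE 0.169, limma adjusted p = 0.883). Cacna1g, the T-type calcium channel subunit behind burst firing of relay neurons, had log2 levels of 8.32, 8.14 and 7.93 on the TCDD arrays, against 7.54, 7.58 and 7.92 on the vehicle arrays. Its log2 difference was also 0.45 (SE 0.150, limma adjusted p = 0.883), and the gap between the lowest TCDD array and the highest vehicle array was narrow. Summed over the 9 genes, intensity was 10759 to 13592 on the TCDD arrays and 6952 to 10323 on the vehicle arrays. The lowest sum was that of vehicle array 1. Slc17a6, which many hypothalamic neurons also use, dominates these sums.

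**Figure D3:**
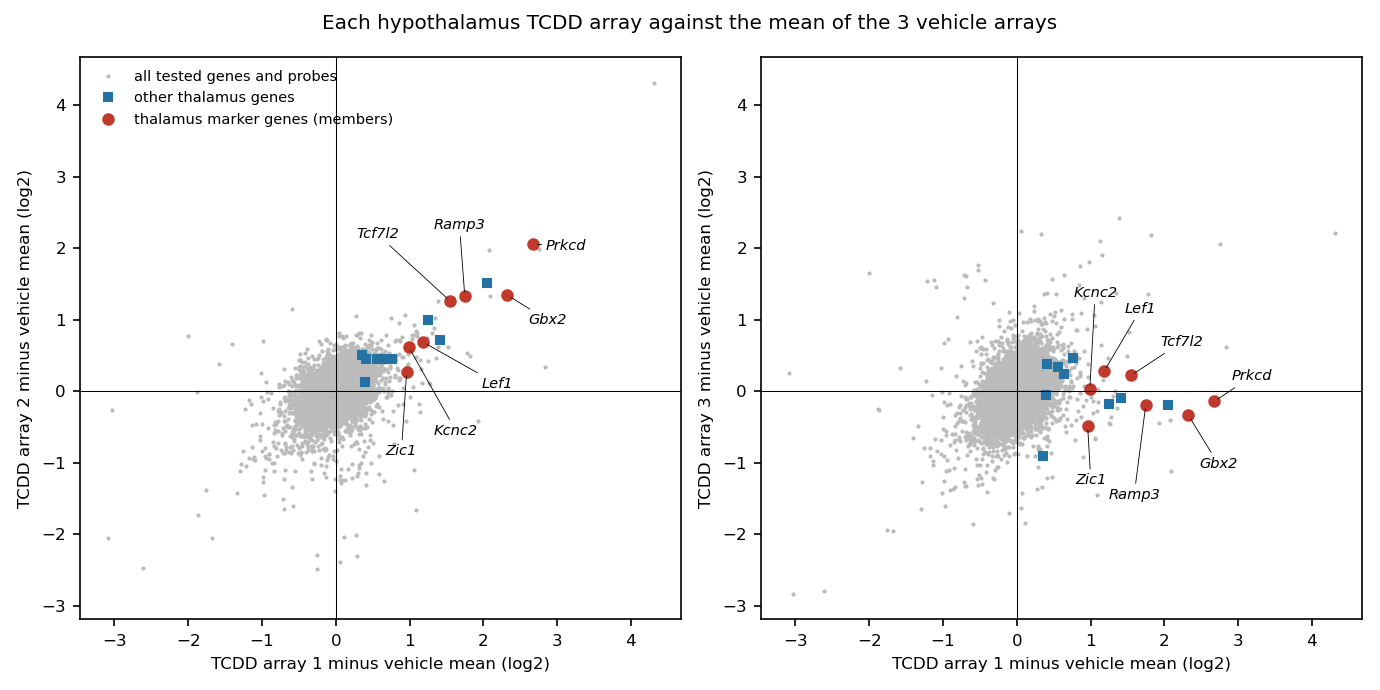
Log2 level on hypothalamus TCDD array 1 minus the mean of the 3 vehicle arrays (horizontal axis) against the same for TCDD array 2 (left) and TCDD array 3 (right), for the thalamus marker genes, other thalamus genes and all genes and probes tested; both axes share the vehicle mean. The 7 genes lie far to the right in both panels, above 0 for array 2 and around 0 for array 3, with medians of 1.55, 1.26 and -0.14 for arrays 1, 2 and 3.

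Genes whose array profile was most like that of the thalamus markers were ranked by Pearson correlation over the 6 hypothalamus arrays with the mean profile of Prkcd, Ramp3 and Kcnc2, the 3 genes detected on all 6. Among 3644 named genes that were detected on all 6 arrays and varied at least as much as the median such gene, the 8 most alike were Sema4g, Synpo2, Dym, Zfyve27, Clec11a, Pcp4, Pamr1 and Chrm3, with r of 0.971 to 0.995. Synpo2, an actin-associated protein on the list of further thalamus genes, had log2 levels of 9.12, 8.57 and 6.87 on the TCDD arrays, against 7.53, 6.44 and 7.22 on the vehicle arrays. Its range of 2.68 on the log2 scale was between those of Ramp3 and Prkcd. Sema4g, a transmembrane semaphorin, had log2 levels of 8.21, 8.01 and 7.49 on the TCDD arrays, against 7.81, 7.38 and 7.56 on the vehicle arrays, so that the same order came with a range of only 0.82. The other 6 had ranges of 0.41 to 1.03. Synpo2, Sema4g and Dym were also the 3 most alike for Prkcd alone and for Ramp3 alone, and Dym, Sema4g and Pcp4 for Kcnc2 alone.

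The most opposed profiles were those of Sstr1, A2m, Pdap1 and Emb, with r of -0.967 to -0.936. Sstr1, a somatostatin receptor, had log2 levels of 9.04, 9.25 and 9.43 on the TCDD arrays, against 9.25, 9.55 and 9.45 on the vehicle arrays. Vehicle array 2, lowest for 5 of the 7 thalamus markers, was highest for all 4 of these genes, whose ranges were 0.43 to 0.72. With 6 points that share their arrays and their normalization, and with 3644 genes ranked, these correlations are descriptions without a test, and they show nothing of shared function.

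The array order of the thalamus markers was set beside that of neighbouring regions. All 9 tested striatal and septal genes and all 4 tested cortical and hippocampal genes were highest on vehicle array 1. That array was the highest for 2441 of all 11095 genes and probes tested. Adora2a, the adenosine receptor of striatal projection neurons, had log2 levels of 8.07, 8.26 and 7.73 on the TCDD arrays, against 11.43, 8.81 and 7.87 on the vehicle arrays. On vehicle array 1 the thalamus markers were near their own means, at -0.04 on average, and ranked below TCDD arrays 1 and 2 for 6 of the 7. Summed intensity of the striatal and septal list was 6989 to 7728 on the TCDD arrays and 7662 to 17526 on the vehicle arrays. Of 4 tested habenula genes, which mark the nucleus above the thalamus, TCDD array 1 was highest for 1, and of 6 tested genes of the reticular nucleus and zona incerta for 0. It was highest for 12.8% of all genes and probes tested, so counts in lists this short are a description. Meis2, a homeobox gene of the last list, had its highest level on vehicle array 1, as the striatal genes did. Its log2 levels were 6.12, 5.64 and 5.50 on the TCDD arrays, against 8.68, 6.53 and 6.07 on the vehicle arrays. Of the 6 genes of that list, vehicle array 1 was highest for 2 and vehicle array 2 for 3.

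Of 16 hypothalamic peptide genes, TCDD array 1 was highest for 0 and vehicle array 2, where 5 thalamus markers were at their lowest, was highest for 7. Vehicle array 2 was the highest for 1859 of all 11095 genes and probes tested, and TCDD array 1 for 1416. Centred on each gene's own mean, the peptide genes averaged -0.04, -0.16 and -0.03 on TCDD arrays 1, 2 and 3, against -0.16, 0.30 and 0.09 on vehicle arrays 1, 2 and 3. Opposite shifts of single genes cancel in such a mean. The thalamus markers were chosen by their levels on these arrays, so the sizes of their shifts and these are not compared. Oxt, the oxytocin precursor gene, had log2 levels of 13.07, 12.26 and 11.48 on the TCDD arrays, against 12.91, 13.78 and 12.84 on the vehicle arrays. Vehicle array 2, which had the lowest summed level of the 7 thalamus markers, had the highest Oxt level. The next highest Oxt level was on TCDD array 1, where all 7 markers were highest, and the lowest was on TCDD array 3. Oxt is 1 of the 16 peptide genes and does not stand for the list. Over the list, the median difference from the vehicle mean was -0.15, -0.15 and 0.21 (log2) on TCDD arrays 1, 2 and 3. The part of the makeup of the dissected tissue in the differences between TCDD and vehicle was not tested.

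**Figure D4:**
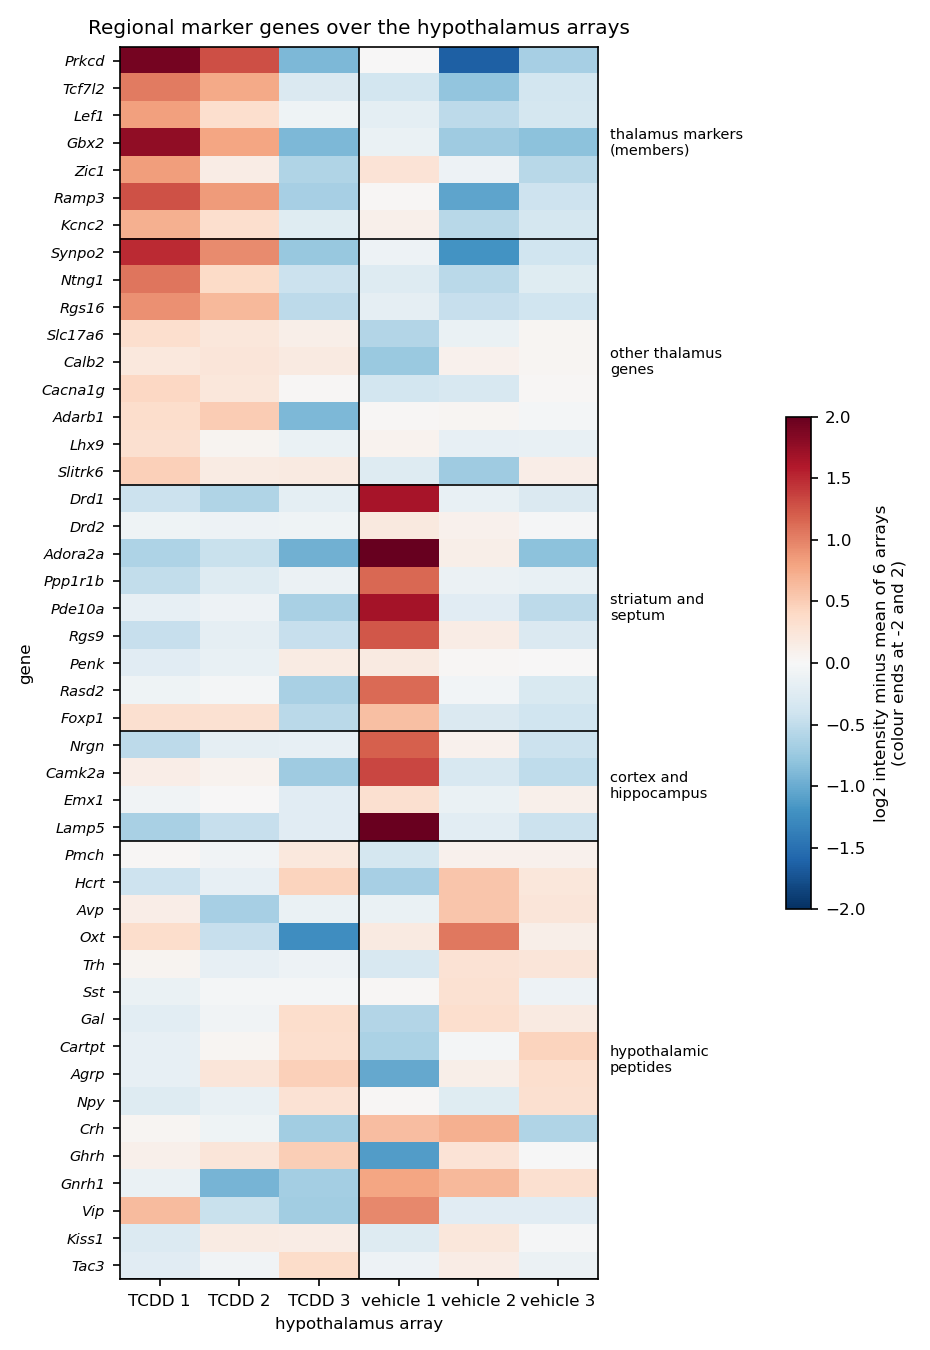
Log2 intensity of each gene (rows) minus its mean over the 6 hypothalamus arrays (columns, TCDD left of vehicle), for the thalamus marker genes and 4 lists of regional genes, from blue (below the mean) to red (above). Red fills the thalamus rows under TCDD arrays 1 and 2 and the striatal and cortical rows under vehicle array 1.

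Relatives of the 7 genes were set beside them by array order. TCDD array 1 was the highest array for 12.8% of all genes and probes tested. All 3 tested relatives of Zic1 and Gbx2, which were Zic2, Zic4 and Zic5, were highest on TCDD array 1. Zic2 had log2 levels of 9.30, 8.16 and 7.57 on the TCDD arrays, against 8.24, 7.67 and 8.21 on the vehicle arrays (limma adjusted p = 0.922), with TCDD array 2 inside the vehicle range. Of 7 tested genes of the Wnt and TCF pathway other than Tcf7l2 and Lef1, TCDD array 1 was highest for 0. So short a list can give 0 at that share, and nothing is read from counts of 0 here. Gsk3b, the kinase that marks beta-catenin for destruction, had log2 levels of 8.51, 8.62 and 8.44 on the TCDD arrays, against 8.90, 8.72 and 8.72 on the vehicle arrays (log2 difference -0.26, limma adjusted p = 0.883). Of 6 tested protein kinase C genes other than Prkcd, 5 were highest on vehicle array 1, as were 2441 of all 11095 genes and probes tested. Among 5 tested genes of the receptors and ligands that Ramp3 serves, TCDD array 1 was highest for 0, and Ramp1 had log2 levels of 9.49, 9.80 and 9.44 on the TCDD arrays, against 10.25, 9.91 and 9.69 on the vehicle arrays. Kcnc1, the Kv3.1 subunit and the tested relative of Kcnc2, had a log2 difference of 0.13 (SE 0.114, limma adjusted p = 0.899). By limma, 0 genes of these 5 families passed an adjusted p of 0.05 in the hypothalamus, and Gsk3b alone had an unadjusted p under 0.05.

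The pituitary, which holds no thalamic tissue, detected 2 of the 7 genes. Tcf7l2, Lef1, Gbx2, Zic1 and Ramp3 were detected on 0 of the 6 pituitary arrays, with detection p-values of 0.0582 to 0.973. Ramp3 came closest to detection, at 0.0582 to 0.199. The pituitary was chosen as the contrast for these genes, and 9.38% of the genes and probes tested in the hypothalamus were likewise detected on no pituitary array. With all arrays normalized together, Ramp3 was at least 2.59-fold higher on the hypothalamus vehicle arrays (6.86 ± 0.538, SD, n = 3) than on the pituitary vehicle arrays, Zic1 at least 1.06-fold and Tcf7l2 at least 1.01-fold, each set against the lowest detected level on those arrays or the probe's own value, whichever was higher. For Lef1 and Gbx2 that bound allowed no fold.

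Kcnc2 and Prkcd were measured in both tissues. Kcnc2 averaged 11.12 ± 0.320 on the hypothalamus vehicle arrays and 8.77 ± 0.271 on the pituitary vehicle arrays (log2, SD, n = 3 each), a 5.09-fold difference at its brightest probe, and its other probes gave 4.11-fold and 1.33-fold. Prkcd averaged 7.83 ± 0.824 on the hypothalamus vehicle arrays and 7.55 ± 0.173 on the pituitary vehicle arrays, a 1.22-fold difference with overlapping groups. Hypothalamus vehicle array 2, at 6.96, lay below all 6 pituitary arrays, whose Prkcd levels ranged from 7.14 to 7.74. For 6 of the 7 genes all hypothalamus vehicle arrays were above all pituitary vehicle arrays, as for 29.7% of all genes and probes tested, a share from which nothing is read because it was used in the choice.

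In the pituitary Prkcd spanned a narrow range over the arrays. With the pituitary arrays normalized on their own, its log2 levels were 7.39, 7.39 and 7.05 on TCDD arrays 1, 2 and 3, against 7.41, 7.65 and 7.31 on vehicle arrays 1, 2 and 3. The groups overlapped and the whole range was 0.60, against 3.55 in the hypothalamus. The log2 difference, TCDD minus vehicle, was -0.18 (SE 0.132, 95% interval -0.48 to 0.12, limma adjusted p = 0.900). Kcnc2 had log2 levels of 8.98, 8.86 and 9.09 on the TCDD arrays at its brightest probe, against 8.49, 8.53 and 8.99 on the vehicle arrays. Vehicle array 3 was inside the TCDD range, and the log2 difference was 0.31 (SE 0.144, 95% interval -0.02 to 0.64, limma adjusted p = 0.848). The other probes of Kcnc2 differed the other way, by -0.19 and -0.18 (limma adjusted p = 0.943 and 0.900), so the probes disagree in sign in the pituitary. By limma 0 of the 2 genes passed an adjusted p of 0.05, where 0.0% of 10119 genes and probes did, and 0 had an unadjusted p under 0.05, where 6.07% of all did.

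Among relatives in the pituitary, Prkch, protein kinase C eta, had log2 levels of 7.38, 7.24 and 7.49 on the TCDD arrays, against 7.87, 7.93 and 7.87 on the vehicle arrays. All 3 TCDD arrays were below all 3 vehicle arrays, and the log2 difference was -0.51 (SE 0.0944, limma adjusted p = 0.491). Prkch was named for the smallest p of its family, in which other genes also had groups that did not overlap, in both directions. The share of all pituitary genes and probes with such an order is not given, so nothing is read from it. Tcf7l1, the relative of Tcf7l2 that mostly represses Wnt targets, had a log2 difference of -0.26 (SE 0.111, limma adjusted p = 0.823). Zic4, Calcb and Kcnc1 had log2 differences of 0.20, 0.46 and 0.02 (limma adjusted p = 0.857, 0.927 and 0.987).

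The difference of the TCDD effect between the tissues was tested with all 12 arrays in a single fit of 4 groups. Sample titles with the numbers C4 and T2 occur in both tissues, the labels do not say whether these are the same animals, and the fit took all arrays as independent. For all 7 genes the effect in the hypothalamus minus that in the pituitary was above 0, as for 50.7% of all genes and probes, and by limma 0 of the 7 passed an adjusted p of 0.05, where 0.0% of 11910 genes and probes did. Tcf7l2 and Lef1 had an unadjusted p under 0.05, where 3.15% of all did in that direction. The log2 difference of effects was 1.72 for Prkcd (SE 0.807, 95% interval -0.03 to 3.48, limma adjusted p = 0.809). It was 0.83 for Tcf7l2 (SE 0.346, limma adjusted p = 0.764) and 0.67 for Lef1 (SE 0.235, limma adjusted p = 0.717). For Gbx2, Ramp3, Kcnc2 and Zic1 it was 1.04, 0.95, 0.24 and 0.23, and 0.90 and 0.43 at the other Kcnc2 probes. Without hypothalamus TCDD arrays 1 and 2 it was 0.04 for Prkcd, 0.08 for Tcf7l2, 0.26 for Lef1, -0.19 for Ramp3 and -0.27 for Kcnc2. The 5 genes not detected in the pituitary entered this fit with pituitary levels at background, so their values largely restate the hypothalamus levels by which the genes were chosen, and nothing is read from the count.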

How the data were processed

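Total RNA (250 ng per array, per the labels' protocols) was labelled with biotin and hybridised to 12 Illumina RatRef-12 arrays. Per the file headers, the deposited table held each probe's signal intensity, not normalized by the authors, beside its detection p-value. The scanner software is not given in the sources consulted. In a further table the authors deposited intensity values that they had normalized within each tissue, by an unstated method, which served as an alternative.

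Gene names came from the platform annotation: 13793 of 22523 had 1 symbol, 0 several and 8730 were unnamed here. Each tissue's 6 arrays were corrected with limma's nec (offset 16), quantile normalized and log2-transformed. The offset draws folds of dim probes toward 1. Probes with a detection p under 0.05 on at least 3 arrays were tested, a gene by its brightest probe, with limma's lmFit and eBayes (limma 3.58.1, R 4.3.3), two-sided, with Benjamini-Hochberg adjustment over everything tested. The fit was tested on simulated data. For values across tissues, all 12 arrays were normalized together.

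The members and lists were chosen with earlier results of these data known. Besides the 7 members, the text names by rule the 2 genes of smallest p per list in the hypothalamus (1 in the pituitary for related families, of which the text gives those it needs), the genes of most and least alike profile, and label genes; Adora2a, Calb2 and Adarb1, and Zic4 in the hypothalamus, were named after their values were seen. Tshb was likewise named after its values were seen. The number of arrays, 3 per group, limits precision, and p-values measure the spread between arrays, which may be technical.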

Additional observations from a re-analysis of the deposited data

How the results depend on the processing

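By limma, 0 of the 7 thalamus marker genes passed an adjusted p of 0.05 in the hypothalamus or in the difference between tissues, and 0 of the 2 tested in the pituitary, under any alternative run for each: background correction, scaling, filter, probe choice, variance model, array weights and leaving out each array, and, within each tissue only, the authors' normalized table. The smallest adjusted p was 0.180, for Tcf7l2 without TCDD replicate 3. Direction turned as follows. Without hypothalamus TCDD arrays 1 and 2 (chosen after the values were seen), the hypothalamus difference was -0.14 for Prkcd and -0.19 for Ramp3, and the difference between tissues was -0.19 for Ramp3 and -0.27 for Kcnc2. With each array left out in turn, the Zic1 difference ran from -0.10 (without hypothalamus TCDD replicate 1) to 0.62 in the hypothalamus, and from -0.10 to 0.56 between tissues; the cause was not tested. Arrays of the same replicate label share only that number, and the numbers in their sample titles match for pituitary replicates 2 and 3 only. Their deviations correlated at 0.112, 0.0956 and 0.259 in the hypothalamus and at 0.0715, 0.185 and 0.0699 in the pituitary, and each pituitary TCDD array, but not each hypothalamus one, correlated best with its own number. With the replicate block, 0 members passed and 6 had an unadjusted p under 0.05 by limma in the hypothalamus, against 2 in the main fit. The rise was not particular to the block. The count was also 6 with array weights, with all 12 arrays together and without TCDD replicate 3. It was 5 without vehicle replicate 1 and 0 to 3 under the other alternatives. The share over all genes and probes under each of these alternatives is not given, so nothing is read from these counts. Dim probes lie near background, and their hypothalamus differences depend on its treatment: Tcf7l2, Lef1, Gbx2 and Zic1 gave 0.50, 0.33, 0.56 and 0.12 without background correction and 0.32, 0.20, 0.37 and 0.08 in the authors' normalized table, against 1.01, 0.72, 1.11 and 0.25 as reported.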

Other observations

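Beyond the thalamus markers, genes of other tissues and cell types also differed between hypothalamus arrays. TCDD array 2 was the lowest array for 9 of the 10 tested meningeal and fibroblast genes, and for 1321 of all 11095 genes and probes tested. Col1a2, a collagen chain of fibroblasts, had log2 levels of 11.25, 9.88 and 10.57 on the TCDD arrays, against 11.02, 11.07 and 11.72 on the vehicle arrays. Vehicle array 1 was the highest array for 8 of the 10 tested oligodendrocyte genes, and for 2441 of all genes and probes tested. It was also the highest for the cortical gene Lamp5. Lamp5 had log2 levels of 8.98, 9.17 and 9.41 on the TCDD arrays, against 11.61, 9.43 and 9.21 on the vehicle arrays. Prl, the pituitary hormone prolactin, had log2 levels of 7.86, 5.11 and 5.33 on the hypothalamus TCDD arrays, against 6.78, 5.18 and 8.36 on the vehicle arrays. Prl was thus higher on TCDD array 1 and on vehicle arrays 1 and 3 than on the others, and it was detected on 3 hypothalamus arrays. Tshb, of the same list of pituitary hormones, had another order. Its log2 levels were 10.75, 8.31 and 12.94 on the TCDD arrays, against 9.08, 11.53 and 11.47 on the vehicle arrays. By limma 0 genes of these lists passed an adjusted p of 0.05 for TCDD against vehicle, and 0 of the meningeal, oligodendrocyte and cortical genes had an unadjusted p under 0.05.

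Genes of the lists whose TCDD and vehicle arrays did not overlap included Tubb3, the neuronal tubulin, whose values were close within each group. It had log2 levels of 11.00, 11.07 and 11.02 on the hypothalamus TCDD arrays, against 10.63, 10.74 and 10.70 on the vehicle arrays (limma adjusted p = 0.883). All 3 TCDD arrays lay above all 3 vehicle arrays for 5.19% of all genes and probes tested. Syn1, on the same list of neuronal genes, was as close within groups but lower on the TCDD arrays. Its log2 levels were 6.07, 6.00 and 6.04, against 6.32, 6.21 and 6.26 on the vehicle arrays (limma adjusted p = 0.883). Of the 11 genes of that list 7 were higher and 4 lower after TCDD. Gnrh1, the gonadotropin-releasing hormone gene, had 6.64, 5.86 and 6.10 on the TCDD arrays, against 7.57, 7.42 and 7.10 on the vehicle arrays (limma adjusted p = 0.883). None of these orders was that of the thalamus markers, which were highest on TCDD array 1.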
